A study of Mus musculus with 2 samples.

Results

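The primary cilium is a single, non-motile projection that most vertebrate cells build on a centriole, the basal body. Proteins reach it and leave it on intraflagellar transport (IFT) trains: the IFT-B complex travels outward with kinesin-2, and the IFT-A complex returns with dynein-2. A transition zone at the base limits what enters, and the BBSome carries membrane proteins out. In the limb bud the cilium is the place where cells read the hedgehog signal, and mice or people with faults in these genes often have extra or short digits. The 47 genes described here cover these steps: 12 of IFT-B, 6 of IFT-A, 4 motor subunits, 6 that transduce hedgehog at the cilium, 3 of ciliary membrane traffic, 7 of the transition zone, 6 of the BBSome, 2 of its assembly chaperonin, and the basal body gene Ofd1. They were listed by name, by a rule that uses no measured value, and matched by Ensembl gene identifier, and all 47 were found in the gene and transcript tables of both libraries, among 43346 Ensembl gene rows.

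Total RNA above 200 nt was sequenced from limb tissue of B6NCrl mouse embryos at 10.5 days of gestation. The labels name no treatment and no mutant allele, and give a single group of 2 biological replicates, each a pool of both sexes: 69 embryos for replicate 1 and 51 embryos for replicate 2. Fore- and hindlimbs are not told apart in the labels. Since no second group exists, levels within the tissue are described, genes are compared with each other, and the libraries are compared once.

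The deposited values are expected counts (estimated reads per gene) and TPM (an abundance per unit of transcript length, scaled to a fixed total in each library). Expected counts totalled 40509328 in replicate 1 and 43983028 in replicate 2, and the cilium genes took 58384 and 70653 of them, which is 0.150% and 0.166% of the counts on genes. Single members received between 158 and 5614 counts per library. All 10 limb mesenchyme markers were expressed, with a median TPM of 96.4, and markers of ectoderm, endothelium, red cells and macrophages were present too, so each value is a sum over cell types. In such bulk tissue, fewer cells of a type and less RNA per cell cannot be told apart.

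Every cilium gene was expressed. All 47 reached 1 TPM in each library, against 55.2% of 21474 protein-coding genes, and 40 reached a TPM of 5 in both. Their levels were modest: the median member stood at 14.4 TPM, against 21.3 TPM for the 11853 expressed protein-coding genes, with 17 members above that median and 30 at or below it. The highest mean level was 75.6-fold the lowest, from 1.43 TPM for Gpr161 to 108 TPM for Ift46. That span depends in part on a short Ift46 transcript described below. The coefficient of variation over the 2 libraries had a median of 11.7% and reached at most 28.8%.

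**Figure D1:**
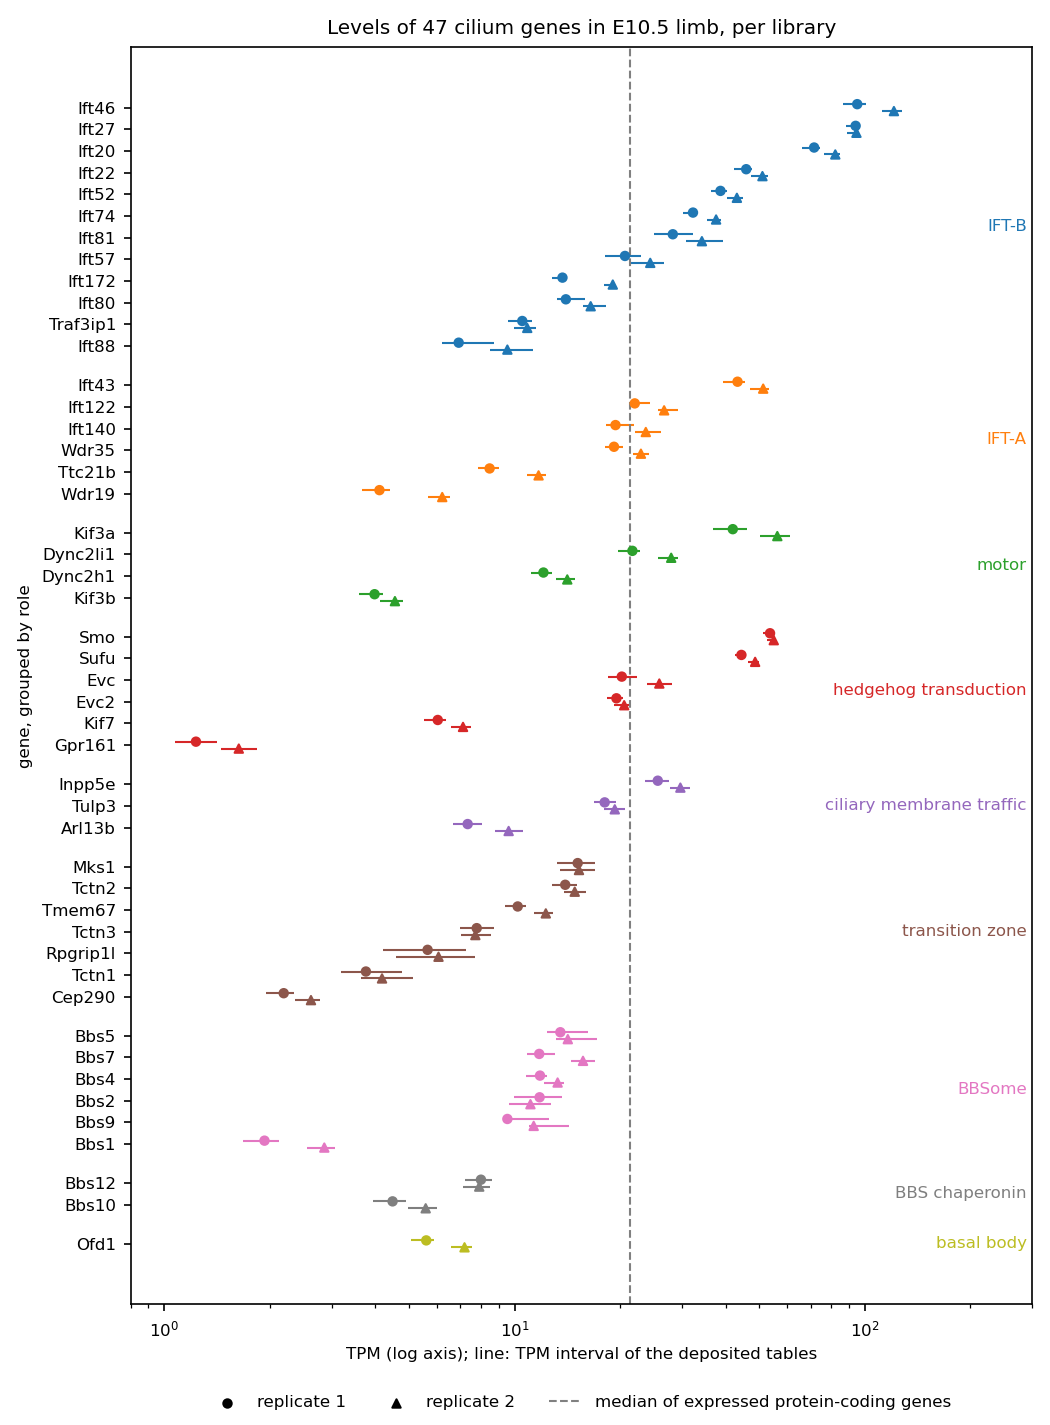
TPM of each of the 47 cilium genes in replicate 1 (circles) and replicate 2 (triangles) on a log axis, grouped by role, with the TPM interval given in the deposited tables as a line and the median of expressed protein-coding genes (21.3 TPM) as a dashed line. IFT-B genes spread from 8.23 to 108 TPM, and all 7 transition zone and all 6 BBSome genes lie left of the dashed line.

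Some members share a promoter sequence that the choice of genes did not use. The X-box, the element bound by regulatory factor X (RFX) proteins at ciliary genes from worms to mammals, was searched as a pair of arms, GTTNCC followed by GGNAAC with 0 to 3 bases between them, a pattern that reads the same on both strands. The windows were RefSeq promoters (GRCm38.p6, 250 bases before to 50 after each start), in which 42 of the 47 genes had an entry; Dync2li1, Ift122, Ift80, Ift81 and Tmem67 had none. The pair occurred in 5 of these 42 genes (11.9%) and in 155 of 17491 protein-coding genes (0.886%). These 5 are shown because they are the members with the complete element; capitals mark the paired arms and the bases between them, and each line is 30 bases, 5′ to 3′ on the gene's strand.
Bbs7: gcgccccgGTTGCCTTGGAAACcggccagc
Ift57: gccctgcgGTTGCCTGGTAACggtggggac
Mks1: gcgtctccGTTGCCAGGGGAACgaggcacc
Tctn3: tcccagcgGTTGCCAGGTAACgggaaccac
Tctn1: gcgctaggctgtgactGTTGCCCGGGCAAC

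The Bbs7 window lies at chr3:36613489-36613518 on the minus strand, with the element 121 bases before the RefSeq start. That of Ift57 lies at chr16:49699226-49699255 on the plus strand, 60 bases before the start. The Mks1 element begins 24 bases before the start, in the window chr11:87853183-87853212 on the plus strand. For Tctn3 the element begins 140 bases before the start, in the window chr19:40612350-40612379 on the minus strand. In Tctn1 it begins 36 bases after the start, in the window chr5:122264411-122264440 on the minus strand. By the GENCODE M21 gene bounds, the Tctn1 and Ift57 elements lie inside the gene and the other 3 before it.

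These 5 genes did not share a level. Tctn1 was among the lowest members at 3.97 TPM, Tctn3 stood at 7.76, Bbs7 at 13.7, Mks1 at 15.2 and Ift57 at 22.5 TPM, the highest of the 5. A single arm, GTTGCC or its reverse complement GGCAAC, was found in 18 of the 42 genes (42.9%) and in 14.3% of all 17491 genes. The 18 include all 5 with the pair, and a match is no measurement of binding. Among the RFX genes, Rfx3 was the highest, at 15.4 ± 0.81 TPM (SD, n = 2).

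IFT-B had the highest median of the roles, 33.1 TPM over the 12 genes listed. That rank covers the listed members only. The 13 other IFT and motor subunits had a median of 17.0 TPM. That list mixes IFT and motor genes and was not split by complex, so the rank of IFT-B as a whole is not known. Ift46, which binds Ift52 in the core of the complex (chr9:44767908-44793447 on GRCm38, plus strand), had 95.1 TPM in replicate 1 and 121 TPM in replicate 2, a mean of 108 ± 18.3 (SD, n = 2). Ift27, a small GTPase of the Rab type, had 94.1 and 94.6 TPM. Ift20, which also sits at the Golgi and helps load membrane cargo, had 71.6 and 82.3 TPM. These 3 genes led the whole set, in both libraries. The first place of Ift46 depends on its minor transcripts, some of them short. Ift46-202, with 75.8% and 74.8% of the Ift46 counts, held 46.2% and 45.2% of its TPM.

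The other small GTPase of the complex, Ift22, was at 45.8 and 51.0 TPM, so Ift27 was 1.95-fold higher. The tables give each TPM an interval from the estimation, whose level is not stated, and a pair of genes is called different here when each library separates those intervals with the same gene on top. That rule was passed by 16 of the 22 partner pairs compared, Ift27 against Ift22 among them. How often other pairs of expressed genes would pass it was not counted. Since members of a pair were measured in the same libraries, the ratio is free of library size, but its interval covers estimation error only.

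The core subunit Ift52 had 38.7 and 43.1 TPM. Its partner Ift88, the gene of the Oak Ridge polycystic kidney mouse, had 6.92 and 9.53 TPM. It was the lowest of the listed IFT-B genes. Ift52 was thus 5.03-fold higher than Ift88, and the call held in both libraries. Ift74 and Ift81, which together form a tubulin-binding module, had overlapping intervals, at 32.3 and 37.6 TPM for Ift74 and 28.3 and 34.2 TPM for Ift81. The log2 ratio of Ift74 to Ift81 was 0.16 ± 0.04 (SD, n = 2), and it was 0.82 with protein-coding transcripts alone.

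Ift57, an outer IFT-B subunit, had 20.7 and 24.4 TPM and was 3.42-fold below its partner Ift20. Ift172, the largest subunit, had 13.7 TPM in replicate 1 and 19.1 TPM in replicate 2. Ift80, a subunit next to it whose human counterpart is mutated in a short-rib skeletal disease, had 14 and 16.5 TPM. Ift172 and Ift80 were not separated, with a log2 ratio of Ift80 to Ift172 of −0.09 ± 0.17 (SD, n = 2), and which of the pair was higher differed between the libraries. Traf3ip1, the mouse gene of the IFT54 subunit, was at 10.5 and 10.9 TPM.

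IFT-A genes had a median of 21.3 TPM. Ift43, a small peripheral subunit, was the highest, at 43.3 TPM in replicate 1 and 51.2 TPM in replicate 2. Ift122, Ift140 and Wdr35 formed a close group, at 22.0 and 26.7, 19.4 and 23.7, and 19.2 and 22.9 TPM respectively. Neighbours within that group were not separated in both libraries. Ttc21b had 8.48 and 11.7 TPM, and Wdr19 (chr5:65199696-65260415, plus strand) had 4.11 and 6.21 TPM, the lowest of the complex. Wdr19 and Wdr35 code for related propeller subunits, known as IFT144 and IFT121, and Wdr35 was 4.15-fold higher.

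The kinesin-2 motor that drives outward transport is a dimer of the Kif3a and Kif3b proteins, yet their RNAs were far apart. Kif3a (chr11:53567379-53601967, plus strand) had 42.0 TPM in replicate 1 and 56.2 TPM in replicate 2. Kif3b (chr2:153291413-153333390, plus strand) had 3.98 and 4.55 TPM. The ratio was 11.4-fold. It fell to 7.77-fold when only protein-coding transcripts were counted, since the short transcript Kif3a-206 is not protein-coding. Kif3a-203, the longest coding transcript, alone had 9.82 and 12.6 TPM, still above Kif3b. For dynein-2, the light intermediate chain gene Dync2li1 had 21.7 and 28.0 TPM and the heavy chain gene Dync2h1 12.1 and 14.1 TPM. Dync2li1 was 1.89-fold higher, also a called pair.

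The 6 hedgehog transduction genes spanned the widest range of any role, 37.9-fold. Smo, the receptor-like protein that enters the cilium when the pathway is on (chr6:29735503-29761365, plus strand), had 53.6 TPM in replicate 1 and 54.9 TPM in replicate 2. Sufu, which holds Gli factors in check, had 44.4 and 48.6 TPM. Kif7, the kinesin that organises the cilium tip where Gli and Sufu gather, had 6.03 and 7.12 TPM, 7.09-fold below Sufu. Gpr161, a ciliary receptor that restrains the pathway through cyclic AMP (chr1:165295789-165326745, plus strand), was the lowest of all 47 members, at 1.23 and 1.63 TPM. Smo was 38.3-fold higher than Gpr161, the largest ratio among the 22 pairs. One transcript took 100% of the deposited TPM of each gene in both libraries.

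Evc and Evc2, the genes of Ellis-van Creveld syndrome, code for partners that sit near the base of the cilium and act with Smo. Evc had 20.2 TPM in replicate 1 and 25.9 TPM in replicate 2, while Evc2 had 19.5 and 20.5 TPM. The pair was not called, with a log2 ratio of 0.19 ± 0.20 (SD, n = 2): the intervals overlapped in replicate 1 and not in replicate 2.

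Among genes of ciliary membrane traffic, Inpp5e was the highest. This phosphatase, which sets the lipid make-up of the ciliary membrane, had 25.6 TPM in replicate 1 and 29.7 TPM in replicate 2. Tulp3, an adaptor that brings receptors such as Gpr161 in with IFT-A, had 18.1 and 19.3 TPM. Arl13b, the ciliary small GTPase that retains Inpp5e, had 7.34 and 9.61 TPM and was 3.29-fold below Inpp5e.

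The 7 listed transition zone genes had a median of 7.76 TPM, 4.27-fold below that of the listed IFT-B genes. That gap covers the listed members only: the 18 other transition zone genes had a median of 21.02 TPM. Mks1 (15.1 and 15.3 TPM) and Tctn2 (13.9 and 14.8 TPM) were the highest and had overlapping intervals. The tectonic genes code for 3 related proteins of one membrane complex and were ordered Tctn2, Tctn3, Tctn1 in both libraries. Tctn3 had 7.79 and 7.72 TPM and Tctn1 3.76 and 4.18 TPM, so that Tctn2 was 1.85-fold higher than Tctn3 and 3.63-fold higher than Tctn1. The meckelin gene Tmem67 had 10.2 and 12.3 TPM. Mks1 was called 1.36-fold higher than Tmem67, but with protein-coding transcripts alone the direction turned, to a log2 ratio of −0.18. Rpgrip1l had 5.64 and 6.06 TPM and was 2.44-fold above Cep290, at 2.19 and 2.62 TPM. That ratio depends on a transcript of 404 nt. The 7009-nt Rpgrip1l-201, with most of the counts, alone had 2.62 and 3.27 TPM.

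Of the 6 BBSome genes, 5 lay close together. Bbs5 (13.5 and 14.2 TPM), Bbs7 (11.8 and 15.7), Bbs4 (11.8 and 13.3), Bbs2 (11.8 and 11.1) and Bbs9 (9.53 and 11.3) formed a chain in which no neighbouring pair was separated in both libraries. The replicate 1 value of Bbs9 lies just under its own interval in the table, which ran from 9.71 to 12.5 TPM. Bbs1 stood apart from this chain. It lies at chr19:4886878-4906628 on the minus strand and had 1.93 TPM in replicate 1 and 2.86 TPM in replicate 2, 4.42-fold below Bbs9. Levels of the chaperonin-like genes that assemble the BBSome were 8.01 and 7.92 TPM for Bbs12 and 4.48 and 5.57 TPM for Bbs10, a called difference of 1.59-fold. Ofd1, an X-linked gene of the distal centriole, had 5.59 and 7.19 TPM.

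Within roles, 24 of 38 neighbours in the order of levels were separated in both libraries and 14 were not. The same count was not made for other expressed genes, so whether this is many or few is not known. Across the 47 members, longer genes had lower TPM (Spearman's rho −0.54, given as a description; all values come from the same 2 libraries and TPM itself is divided by length). The same correlation over the 11853 expressed protein-coding genes was −0.29. Bbs1, Gpr161, Cep290 and Kif3b, 4 of the 5 lowest members, had lengths of 5581, 6862, 8006 and 5635 nt, and the other, Tctn1, 1676 nt. Ift46, Ift27 and Ift20 had 841, 1012 and 960 nt. These lengths are those of replicate 1, averaged over a gene's transcripts by abundance, so abundant short transcripts lower them. Ift46-202, the Ift46 transcript with the most counts, has 1317 nt.

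The transcript tables show what these gene levels are made of. The members had 214 transcripts: 13 genes had a single one and 34 had 2 or more. In 30 of those 34 the same transcript led by share of TPM in both libraries, against 91.8% of 8741 expressed protein-coding genes with 2 or more transcripts. The exceptions were Ift57, Ift80, Rpgrip1l and Tctn1. The leading transcript took a median of 66.6% of the gene's TPM. Transcripts annotated as retained introns, nonsense-mediated decay targets or other non-coding forms took a median of 14.1% of a member's TPM, against 8.74% over the same background, and at least 20% in 13 of the 34 genes, against 33.8% of background genes.

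**Figure D2:**
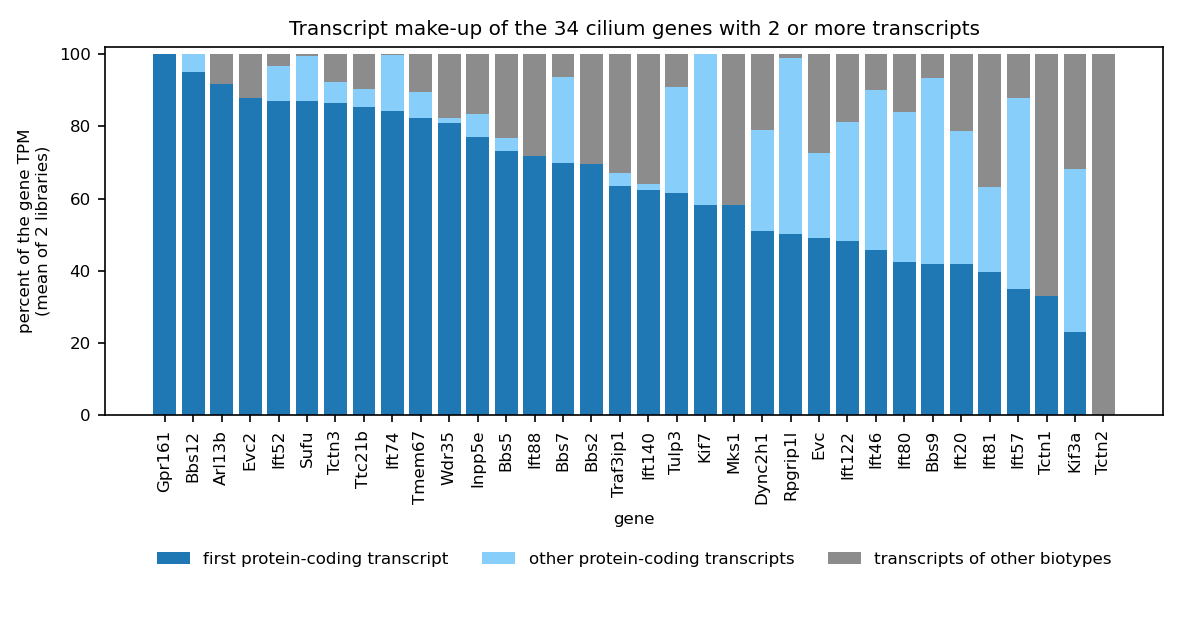
Share of each gene's TPM (percent, mean of 2 libraries) taken by its most abundant protein-coding transcript, by its other protein-coding transcripts and by transcripts of other biotypes, for the 34 cilium genes with 2 or more transcripts. Kif3a, Tctn1 and Tctn2 stand at the right, with at most 32.9% in their first protein-coding transcript.

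In 3 members the leading transcript was not annotated as protein-coding in either library, against 8.42% of the background genes. The first is Tctn2, where Tctn2-207 took 81.0% in replicate 1 and 82.6% in replicate 2. GENCODE M21 classes that transcript, and the gene, as non-coding, while RefSeq lists Tctn2 as a protein-coding gene. The second is Tctn1, at only 158 and 214 counts: a retained-intron form led in replicate 1 with 42.7% and a decay form in replicate 2 with 35.3%. The third is Kif3a, where Kif3a-206, a decay target of 770 nt, took 33.7% and 30.2%.

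Shares of TPM are not shares of reads. Kif3a-206 received 253 and 316 counts, 13.8% and 12.7% of those on the gene, while Kif3a-203, of 3161 nt, received 802 and 1075 counts, 43.8% and 43.4%. Dync2h1 showed the same split. Dync2h1-202, of 2892 nt, took 49.3% and 52.5% of TPM, but the full-length Dync2h1-204, of 14264 nt, received 51.3% and 63.8% of the counts. Ift57 was the third and last member in which the transcript with the most counts differed from the one with the highest TPM in both libraries.

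Short models also raised the level of some genes. Ift46-209, of 229 nt, received 109 and 150 counts out of 1880 and 2471 on Ift46, yet took 33.1% and 34.3% of its TPM. The main transcript Ift46-202 alone had 43.9 TPM in replicate 1 and 54.7 TPM in replicate 2. Rpgrip1l-202, of 404 nt, took 53.2% and 44.5% of TPM from 24.4 and 22.9 counts, against 482 and 627 counts on the 7009-nt Rpgrip1l-201. That longer transcript alone had 2.62 and 3.27 TPM, close to the 2.19 and 2.62 TPM of Cep290. With only protein-coding transcripts counted, the median member level fell from 14.4 to 12.5 TPM.

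Several members carried coding transcripts that differ by a few bases, which sets how far reads can tell them apart. In Kif3a (chr11, plus strand) a 9-nt micro-exon at chr11:53590717-53590725 is present in Kif3a-203 and absent from Kif3a-201, and Kif3a-208 has it and starts the next exon 21 bases later. Their coding sequence at this place is shown from the GENCODE M21 transcripts on GRCm38, 5′ to 3′, with the micro-exon in capitals.
Kif3a-201: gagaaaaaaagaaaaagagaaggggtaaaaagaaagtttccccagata
Kif3a-203: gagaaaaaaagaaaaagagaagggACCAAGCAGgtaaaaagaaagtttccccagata
Kif3a-208: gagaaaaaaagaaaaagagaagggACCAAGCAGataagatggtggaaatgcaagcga

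Transcripts with the micro-exon had 47.6% of the TPM of the 4 coding transcripts that span the site in replicate 1 and 73.5% in replicate 2. Kif3a-203 held 23.4% and 22.5% of the gene's TPM, at 9.82 and 12.6 TPM. Kif3a-201 had 11.1 and 7.20 TPM, and Kif3a-208 0.08 and 7.37 TPM. The intervals of Kif3a-201 (4.94 to 12.3 TPM in replicate 1 and 1.57 to 10.95 in replicate 2) and of Kif3a-208 (up to 5.30, then 3.39 to 12.5) overlapped between libraries, so neither difference was separated from estimation error.

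Ift122 and Bbs7 offer the same kind of contrast. Their transcripts also differ elsewhere, since Ift122-203 has 4122 nt and Ift122-201 4056 nt, and Bbs7-203 has 2687 nt and Bbs7-201 2599 nt. Ift122-201 has 3 bases, at chr6:115916970-115916972 on the plus strand, that Ift122-203 lacks at the start of one coding exon. Bbs7-201 and Bbs7-203 place one intron 4 bases apart on the minus strand of chromosome 3, so that each has 4 coding bases of its own, at chr3:36610562-36610565 and chr3:36610352-36610355. Capitals mark the bases that the other transcript lacks.
Ift122-201: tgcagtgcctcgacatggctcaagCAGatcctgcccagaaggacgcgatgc
Ift122-203: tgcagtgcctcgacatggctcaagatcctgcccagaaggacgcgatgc
Bbs7-201: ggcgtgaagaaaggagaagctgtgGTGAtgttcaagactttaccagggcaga
Bbs7-203: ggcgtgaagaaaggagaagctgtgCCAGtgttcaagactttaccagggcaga

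Both Ift122 forms were present in each library: Ift122-203 had 9.59 and 14.1 TPM and Ift122-201 7.74 and 8.07 TPM. Bbs7-203 took 88.7% of the Bbs7 TPM in replicate 1 and 50.8% in replicate 2, and Bbs7-201 0% and 30.4%. The Bbs7-201 interval reached 2.64 TPM in replicate 1 and ran from 1.93 to 7.77 TPM in replicate 2, so the libraries overlapped. These 2 and Tctn1-203, at 8.17% and 35.3%, were the only 3 of 214 transcripts whose share moved by 20 points or more, and none of the 3 had separate intervals. Of the 214 transcripts, 23 had separate TPM intervals between the libraries, and 9 of these held 100% of their gene's TPM in both. The same counts over all transcripts were not made, so whether these are many or few is not known.

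Some reads could belong to a neighbour. Of the 47 members, 10 share exon bases with another gene in the tables, in every case on the opposite strand, and 37 share none. Whether counting used strand is not given in the sources used here, so such reads cannot be assigned with certainty. The 7 members with expected counts that are not whole numbers (Ift57, Kif7, Inpp5e, Tctn1, Cep290, Tmem67 and Ofd1) are all among the 10. The largest overlap by bases is that of Tctn1 with Hvcn1 (1574 bases; Hvcn1 at 10.1 and 8.22 TPM), and Inpp5e shares 874 bases with the far more abundant Pmpca (124 and 119 TPM).

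The libraries were then compared, replicate 2 against replicate 1, on expected counts scaled by TMM (trimmed mean of M-values). No member differed by 1.5-fold in either direction, while 9.96% of the 16860 genes whose mean count reached 10 were 1.5-fold higher in replicate 2 and 4.65% were lower. Every member had a mean count above 100, and among the 11521 protein-coding genes that averaged at least 100 counts these shares were 4.64% and 1.41%. The members ranged from −0.16 for Bbs12 to 0.45 for Wdr19 on the log2 scale. No p-value is given, since the smallest that a two-sided exact sign-flip test can reach on 2 libraries is 0.5. The libraries were not copies of one another: the chi-square per gene, near 1 for repeat counting of one library, was 8.22 over members and 34.3 over all genes past the count filter. For a given fold difference this value grows with the count. Members and all genes were not matched on counts, so these values do not rank their stability.

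**Figure D3:**
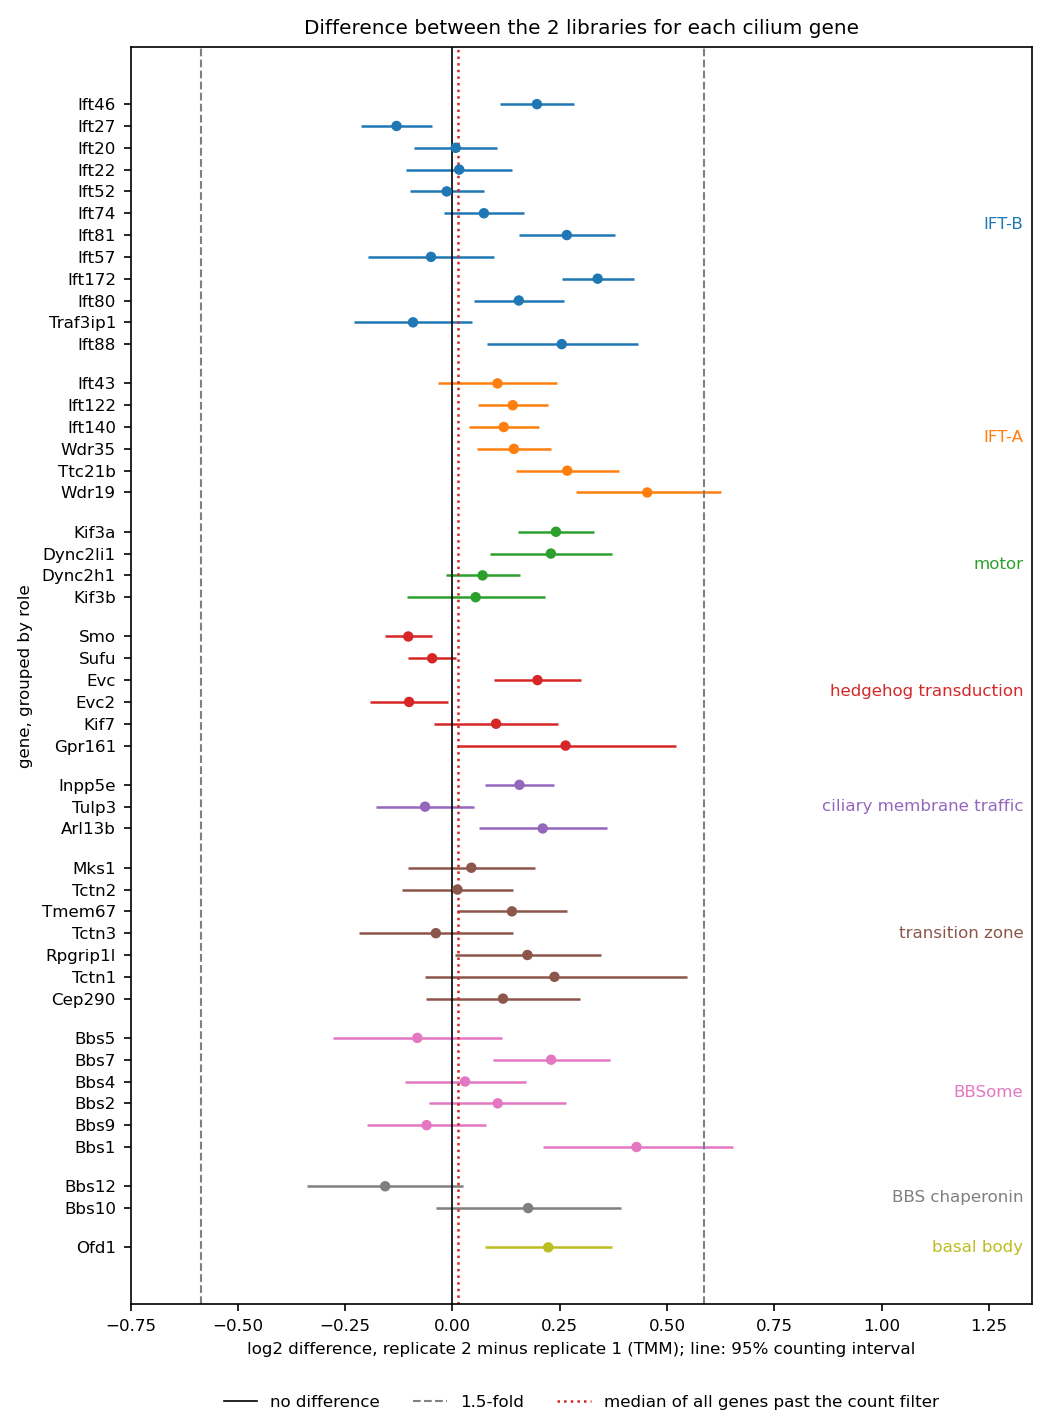
Log2 difference of each cilium gene, replicate 2 minus replicate 1, after TMM scaling of expected counts, with its 95% counting interval as a line, grouped by role; dashed lines mark 1.5-fold and the dotted line the median of all genes past the count filter (0.01). All 47 points lie between the dashed lines, and all 6 IFT-A and all 4 motor genes lie to the right of 0.

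Small differences leaned one way. Under TMM scaling, 35 members were higher in replicate 2 and 12 lower, against 49.5% higher among 11521 protein-coding genes at a mean count of at least 100, a floor that all members passed. The median difference was 0.12 for members and 0.01 for all 16860 genes on the log2 scale. The exact 95% counting interval lay above 0 for 21 members and below 0 for 3 (Ift27, Smo and Evc2), against 30.6% and 33.2% of the same protein-coding genes. These intervals cover counting error only, not the spread between pools.

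The count of members that were higher depended on the scaling: 34 with DESeq2 size factors, 41 with total counts, 44 with deposited TPM and 47 with spike-in counts. The median of all genes shifted too, to 0.12 with TPM and 0.27 with spike-in counts. The members' median lay 0.10 above it under TMM and 0.097 above it with TPM. The other count scalings move every gene by nearly the same amount, so that gap could hardly change under them. All 6 IFT-A genes and all 4 motor genes were higher in replicate 2 under TMM and with TPM. They were higher under the other count scalings too, which for the same reason is no separate evidence. Hedgehog transduction genes were split, with 3 of 6 higher under TMM.

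Wdr19, Bbs1 and Ift172 had the 3 largest differences. Wdr19 had 472 and 742 counts, a log2 difference of 0.45 with a counting interval of 0.29 to 0.62. Bbs1 had 282 and 436 counts, a difference of 0.43 (0.21 to 0.65). Ift172 followed with 1938 and 2810 counts, a difference of 0.34 (0.25 to 0.42). In Bbs2 counts and TPM parted: its counts were 586 and 723 but its TPM 11.8 and 11.1. Of that TPM, 2 short retained-intron transcripts took 26.4% and 13.8% in replicate 1 and 12.7% and 7.79% in replicate 2.

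Marker levels of several cell types also differed between the libraries. Here sums are in TPM, while log2 differences and the numbers of higher or lower markers use TMM scaling. All 5 markers of ectoderm and its apical ridge were lower in replicate 2, with a summed level of 224 TPM in replicate 1 and 171 TPM in replicate 2, none of them at 0. The 4 red cell markers were lower as well, at 8602 and 7545 TPM in sum. The 10 mesenchyme markers summed to 1036 and 1211 TPM, with 6 of 10 higher in replicate 2. The hindlimb genes Pitx1 and Tbx4 were higher by 0.79 and 0.94 on the log2 scale, while the forelimb gene Tbx5 was lower (−0.26). The 3 macrophage markers summed to 14.1 and 17 TPM, with 2 of 3 higher and a median log2 difference of 0.44. Of the 4 neuron markers, which summed to 17.9 and 20.9 TPM, Elavl3 was near 0 at 0.03 and 0.06 TPM, and 2 of the other 3 were higher, with a median of 0.32. The 4 endothelium markers summed to 138 and 144 TPM, with 1 of 4 higher under TMM scaling and all 4 higher by TPM. The part of these marker differences in the shift of the cilium genes was not tested.

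Other lists cover more of the organelle, and the low medians of the listed transition zone and BBSome genes did not extend to them. All 7 other BBSome-related genes, all 18 other transition zone genes and all 18 other basal body and centriole genes were expressed, with median levels of 21.9, 21.02 and 20.96 TPM. Of the transition zone genes, Rpgrip1 passed 1 TPM through a single transcript, Rpgrip1-217, that shares exon bases with Supt16. Its other transcripts together had 0.85 and 0.83 TPM. Of 13 other IFT and motor subunits, 11 were expressed, with a median of 17.0 TPM. The highest of these, Dynll1 (1514 and 1563 TPM) and Dynlrb1 (379 and 379 TPM), are light chains that also serve cytoplasmic dynein. The lowest was Ttc30a2, at 0.10 and 0.72 TPM, a near-identical copy of Ttc30a1 (8.53 and 8.48 TPM), so the split of reads between them is uncertain. Kif17, an accessory kinesin of sensory cilia, had 0.16 and 0.83 TPM.

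Genes of motile cilia, which beat and need dynein arms and radial spokes, were mostly near 0. Only 4 of 19 were expressed, and the median was 0.17 TPM. Foxj1, the master factor of motile ciliogenesis, had 1.22 and 0.57 TPM, while Mcidas and the dynein arm gene Dnah5 were at 0 counts in both libraries. The highest were Ccdc40 (10.8 and 14.9 TPM), Rsph9 (6.45 and 8.40 TPM) and Ccdc114 (4.07 and 5.84 TPM). The leading transcript of Ccdc40, with 34.9% and 33.5% of TPM, is not protein-coding.

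**Figure D4:**
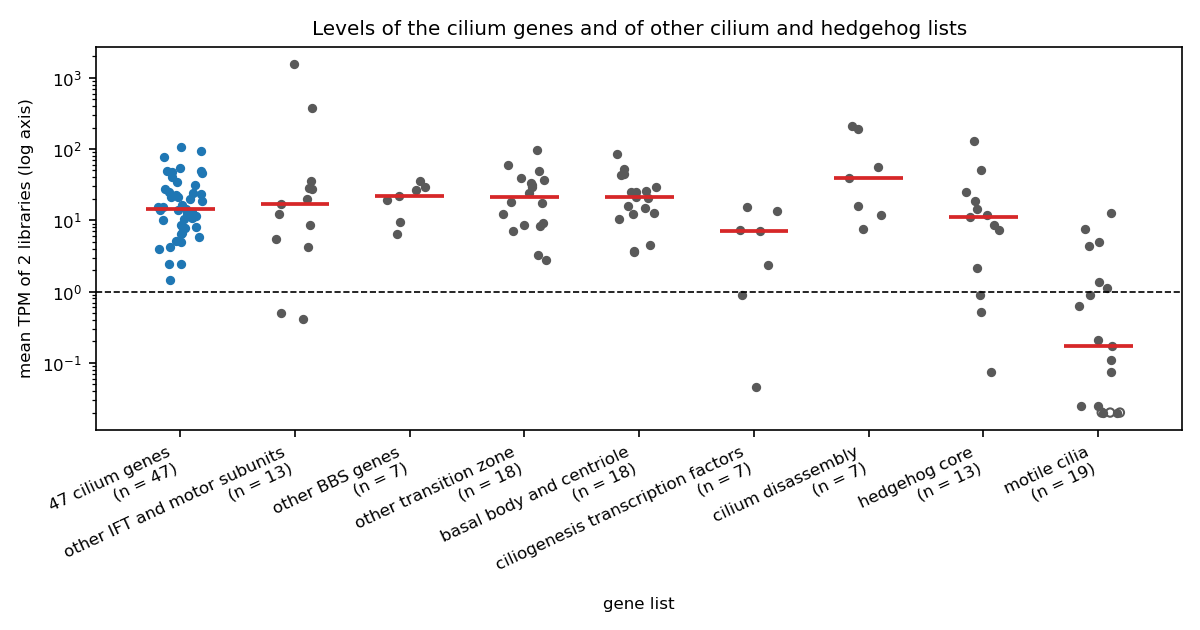
Mean TPM of 2 libraries (log axis) for each of the 47 cilium genes and for the genes of 8 other lists, with the median of each list as a red bar, the TPM of 1 as a dashed line and open circles at 0.02 for the 3 values below it. The median of the 47 genes is 14.4 TPM and that of the 19 motile cilia genes 0.17 TPM.

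A list of other hedgehog pathway genes gave the setting for Smo and its partners. Of 13 listed, 10 were expressed. Shh, the ligand, which is made by a small posterior zone of the bud, had 1.07 and 0.69 TPM, under a mean TPM of 1. The ligand-binding proteins Gas1 and Boc had 120 and 135 TPM and 16.8 and 32.3 TPM, and the receptor Ptch1 11.7 and 11.7 TPM. Of the Gli factors, Gli3 was at 54.1 and 48.4 TPM, Gli2 at 13.8 and 14.6 and the target gene Gli1 at 8.82 and 8.24 TPM. Smo was above Ptch1 in both libraries.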

How the data were processed

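The submitters' sample text files state that reads were aligned to mm10 and that expected counts and TPM were made per library with the GENCODE M4 annotation; the sources used here do not name the aligner, the quantifier, their versions or strand use. The deposited gene and transcript tables hold expected counts, TPM with a posterior mean TPM and interval bounds (level not stated), and, per transcript, the percent of the gene's TPM. Names, biotypes and coordinates came from GENCODE M21 (GRCm38, which is mm10) through the identifiers without their version, which named 42462 Ensembl rows (98.0%).

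From these, expected counts were rounded to whole numbers and scaled with TMM in edgeR 4.0.16 (R 4.3.3; log2 CPM with a prior count of 2), with DESeq2 1.42.0 size factors as an alternative; spike-ins, numeric identifiers and phiX stayed out of library sizes. Genes at 1 TPM in each library were taken as expressed, and differences used a mean count of 10. Counting intervals are exact binomial at 95%. Reads without molecular identifiers are not independent molecules, so intervals cover counting error only. Promoter and transcript sequences came from RefSeq and GENCODE M21. Scaling and intervals were tested on simulated counts. Figures were drawn with matplotlib 3.10.9, and intervals computed with scipy 1.17.1 under Python 3.11.15. The genes, lists and partner pairs were chosen with earlier results of these data known. Any member could be named; of other lists, up to 3 highest and the lowest gene and the hedgehog genes were, and Foxj1, Kif17, Ttc30a1, Pitx1, Tbx4, Tbx5 and genes that overlap a member were named after their values were seen.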

Additional observations from a re-analysis of the deposited data

How the results depend on the processing

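All 47 genes were expressed with the posterior mean TPM, with either library alone and at a TPM of 0.5, 40 were at a TPM of 5, and 46 were when only protein-coding transcripts counted (all but Tctn2). The median level moved from 14.4 TPM to 12.5 TPM with protein-coding transcripts alone and to 7.85 TPM with the longest protein-coding transcript alone, settings chosen after seeing the data, because each sums fewer transcripts; with single libraries it was 13.7 to 15.3 TPM. Scaling to spike-in counts moved the number of genes 1.5-fold higher in replicate 2 from 0 to 3 (Wdr19, Bbs1 and Ift172) and the median difference from 0.12 to 0.37; the cause was not tested. DESeq2 size factors, deposited TPM, total counts, no count filter, a floor of 100 counts and a 2-fold limit left 0 genes on either side. The called pairs numbered 16 with the posterior mean TPM and 16 to 18 with single libraries. The median share of the leading transcript, 66.6%, was 61.9% from the posterior mean TPM and 63.1% to 63.9% with single libraries. There were 255 checks of single genes, pairs and roles. Of these, 226 stayed within the spread of the main value, 28 moved beyond it and 1 called pair reversed. The checks with replicate 1 alone (76) and replicate 2 alone (76) all stayed. For single genes and pairs that outcome was fixed, since each of 2 values always lies within their SD of the mean. With the posterior mean TPM 67 stayed and 9 moved. With protein-coding transcripts alone 7 stayed and 19 moved, and the log2 ratio of Mks1 to Tmem67 reversed, to −0.18. With that setting 2 pairs that were not called also changed sign, Evc to Evc2 from 0.19 to −0.08 and Bbs4 to Bbs5 from −0.14 to 0.24; with replicate 1 alone so did Bbs2 to Bbs7 and Ift80 to Ift172, to 0.0037 and 0.03. No paired analysis was possible because there was only 1 group. Depth was at least 158 counts per gene and library, and 2 pools give no estimate of the spread between litters or dissections.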

Other observations

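Genes that take the cilium apart before division were the most abundant of the cilium lists, with all 7 expressed and a median of 38.7 TPM. Plk1 had 219 and 207 TPM, Aurka 199 and 187 TPM and Nek2 54.0 and 57.1 TPM, all 3 also kinases of mitosis. Of the 7 genes, 5 were lower in replicate 2 under TMM scaling, with a median log2 difference of −0.10.

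Rpgrip1, a transition zone relative of Rpgrip1l, appeared to be among the most abundant ciliary genes, at 99.5 and 96.2 TPM. A single transcript of 1733 nt, Rpgrip1-217, annotated as a decay target, held 99.1% of that level in each library (4296 and 4328 counts). The other Rpgrip1 transcripts together had 0.85 and 0.83 TPM. Of the 1733 exon bases of Rpgrip1-217 (chromosome 14, GRCm38), 1369 are also exons of other Rpgrip1 transcripts and 1057 are also exons of Supt16, which lies on the opposite strand and had 67.8 and 73.2 TPM. Where these reads came from was not tested.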
